A study of Rattus norvegicus with 8 samples.

Results

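The genes described here encode negative feedback regulators and transcription factors of the ERK pathway: the phosphatases *Dusp4*, *Dusp5*, and *Dusp6*, the Sprouty genes *Spry1*, *Spry2*, and *Spry4*, the Sprouty-related genes *Spred1* and *Spred2*, and the ETS factors *Etv4* and *Etv5*. They were chosen by name for their place in the pathway, with earlier results of these data known. All 10 were present once among the 32883 genes of the count table, of which 13937 had enough reads to be tested, and all 10 were among those tested. The tissue was the right Achilles tendon of wild-type SD rats, which were male and aged 8 to 10 weeks. The running rats, 4 animals called 12 h p.r., spent 1 hour on a treadmill and were killed 12 hours later, and the 4 control rats (NC) rested in their cages and were killed at the same time. Running was urged on with airflow and, for rats that left the belt, a mild electric stimulus, so effects of running and of these stimuli cannot be told apart. Each rat gave 1 library of polyadenylate mRNA, so the comparison has 4 rats against 4 and the spread is that between rats.

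ERK (extracellular signal–regulated kinase) is the last kinase of a cascade that runs from receptor tyrosine kinases through RAS, RAF, and MEK. Active ERK switches on genes whose products then restrain the cascade, and their transcripts are widely used as a readout of how strongly the pathway has recently been working. In tendon, fibroblast growth factor signaling through this cascade is known for its part in tendon development, and mechanical loading of cells is known to activate ERK. Messenger RNAs of feedback genes are generally short-lived, so their levels follow signaling over hours.

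No feedback gene differed between the groups beyond the test. With edgeR's quasi-likelihood test and Benjamini-Hochberg adjustment over all genes tested, 0 of the 10 had an adjusted p under 0.05, against 0.00718% of all genes (1 gene of 13937), and their adjusted p values ran from 0.448 to 0.951. At an unadjusted p under 0.05, 1 of the 10 (10%) differed, *Dusp5*, against 9.51% of all genes tested, a share near the background. DESeq2's Wald test also gave 0 and 1 of the 10, against 0.699% of all genes (95 genes) and 9.33%. The point estimate was above the NC level for 5 of the 10 genes and below it for the other 5, and the median log2 fold change was 0.00, against 0.02 over all genes tested. Without regard to sign, the median log2 fold change was 0.24, against 0.15 over all genes tested, a difference that was not tested. In none of the 10 did the 2 groups fall apart without overlap, against 6.06% of all genes, 2.55% with every running rat lower and 3.52% with every running rat higher. The tissue is a mixture, and fewer cells of a type cannot be told apart from less RNA per cell.

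The sample labels fit the tissue. The tenocyte genes *Col1a1* (11100 to 37600 CPM), *Tnmd* (224 to 392 CPM), and *Scx* (20.3 to 60.6 CPM) were detected in every rat, where CPM is reads per 1000000 of the library size scaled by the TMM factors. Total reads on genes were 7350509 to 12951397 per rat. Some rats stood apart in markers of other tissues. The summed level of 9 skeletal muscle genes was 54200 CPM in 12 h p.r. replicate 3, compared with a range of 2380 to 10300 CPM elsewhere, while 9 tenocyte genes summed to only 16700 CPM there, the lowest value of the 8 rats. The summed level of 8 cartilage and bone genes was 1290 CPM in NC replicate 3 and 481 CPM in 12 h p.r. replicate 1, against 14.0 to 128 CPM elsewhere, and 2 of them (*Col10a1* and *Sp7*) were at 0 in at least 1 rat. The sum of 5 Schwann cell genes did not overlap between the groups. It was 572 to 678 CPM in the running rats and 698 to 1040 CPM in the NC rats. The mean log2 level of the same 5 genes did overlap, at 5.52 to 5.85 in the running rats and 5.58 to 6.32 in the NC rats. The separation thus depended on the score used, and the difference in the sum was not tested. An unadjusted edgeR p under 0.05 was found for 3 of 9 tenocyte genes (*Scx*, *Mkx*, and *Thbs4*, all higher), 3 of 7 endothelial genes (*Egfl7* and *Tie1* higher, *Emcn* lower), and 1 of 6 pericyte and smooth muscle genes (*Tagln*, higher), against 9.51% of all genes. It was found for 0 of 9 skeletal muscle, 0 of 7 leukocyte, 0 of 4 cartilage and bone, and 0 of 5 adipocyte genes tested. The tenocyte sums of the groups overlapped, at 16700 to 49000 CPM in the running rats and 27800 to 41500 CPM in the NC rats. The part of these cells in the levels of the feedback genes was not tested.

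A pair of promoters is shown because *Dusp5* is the gene with the smallest p and *Dusp6* the phosphatase gene with the highest level. The sequences are from RefSeq on the build GRCr8, another build than that of the reads, and each runs from 250 bases before the annotated transcription start to 50 bases after it. RefSeq windows were found for 8 of the 10 genes, 9 windows in all because *Spry2* has 2 starts. Capitals mark the CArG boxes in *Dusp5*, the sequence that serum response factor binds, and the letters CGGAAG on the opposite strand in *Dusp6*, a core recognized by ETS factors.
*Dusp5* (chr1:262543524-262543823, plus strand): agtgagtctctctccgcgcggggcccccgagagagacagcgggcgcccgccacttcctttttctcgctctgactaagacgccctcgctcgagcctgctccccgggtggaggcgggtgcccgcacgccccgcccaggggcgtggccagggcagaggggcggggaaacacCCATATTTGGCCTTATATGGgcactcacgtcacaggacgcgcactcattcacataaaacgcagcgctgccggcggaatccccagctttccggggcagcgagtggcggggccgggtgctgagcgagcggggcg
*Dusp6* (chr7:35979354-35979653, plus strand): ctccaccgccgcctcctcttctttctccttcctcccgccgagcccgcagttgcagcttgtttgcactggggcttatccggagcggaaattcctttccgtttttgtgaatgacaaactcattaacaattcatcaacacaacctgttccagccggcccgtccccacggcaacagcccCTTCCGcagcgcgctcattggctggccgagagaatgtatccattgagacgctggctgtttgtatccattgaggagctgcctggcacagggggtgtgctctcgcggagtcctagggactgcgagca

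The *Dusp5* window holds 2 CArG boxes that directly adjoin each other, from 82 to 63 bases before the start. A CArG box was present in 548 of 33469 windows of this length (1.64%), and 7 windows (0.0209%) held 2 or more. Among the 9 windows of the feedback genes, only that of *Dusp5* held one. The letters CGGAAG, read on both strands, were in 2 of the 9 windows, those of *Dusp6* (70 to 75 bases before the start) and *Spred2* (38 to 43 bases before it), against 16.6% of all windows. The longer ETS site CCGGAAGT (3.81% of all windows), the cyclic AMP response element TGACGTCA (1.83%), and the AP-1 site TGAGTCA (4.63%) were in none of the 9 on either strand. These matches describe letters in the reference sequence and were not related to the measured levels by any test.

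The levels of the 10 genes relative to each other were compared in FPKM, which is per gene length. *Dusp6* and *Spry1* led in the NC group, at 16.4 ± 2.24 and 16.1 ± 1.66 FPKM (SD, n = 4 rats). These 2 did not differ beyond their spread, and *Dusp6* was above *Spry1* in 3 of the 4 NC rats and in 3 of all 8 rats. *Spry2* followed at 7.62 ± 0.735 FPKM, below *Spry1* in 8 of 8 rats. *Spred1* (6.62 ± 0.728 FPKM) and *Etv5* (6.52 ± 0.514 FPKM) overlapped with *Spry2* and with each other. *Etv5* was above *Spry4* (4.6 ± 0.487 FPKM) in every NC rat, with no overlap. *Spry4* overlapped with *Spred2* (3.88 ± 0.852 FPKM), and *Dusp5*, *Dusp4*, and *Etv4* were lowest, at 2.41 ± 0.395, 2.37 ± 0.165, and 1.93 ± 0.503 FPKM, without a separation between neighbours. The ratio of the highest mean to the lowest was 8.50. By mean FPKM over the 8 rats, *Spry1* was above 68.6% of all genes tested and *Dusp5* above 16.0%, so these transcripts ranged from moderately to weakly expressed.

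**Figure D1:**
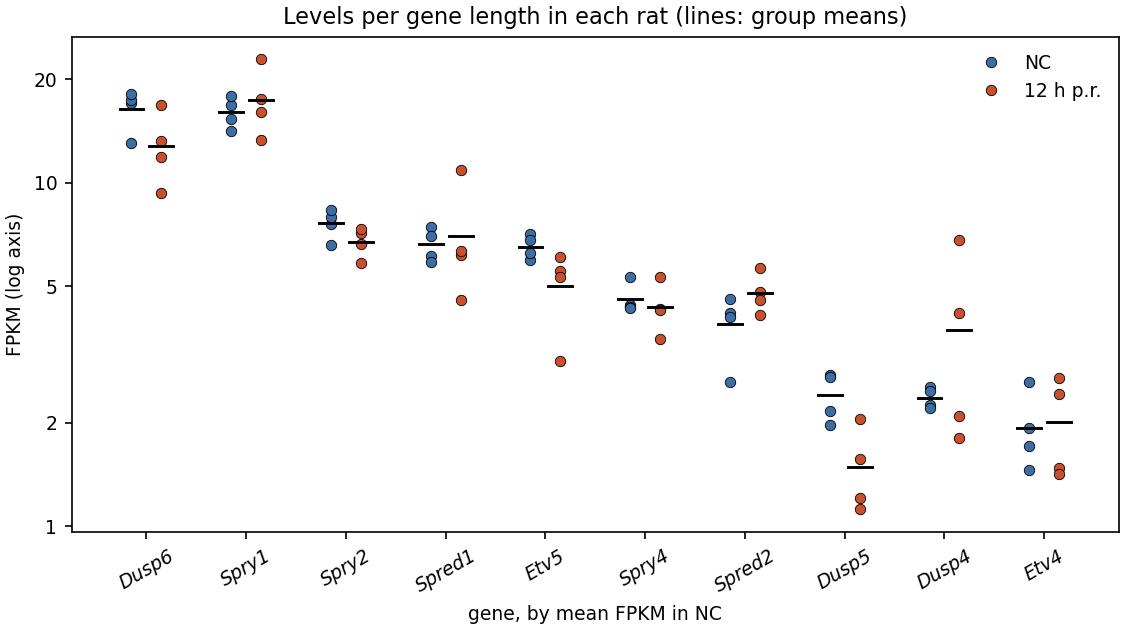
FPKM of each ERK feedback gene (log axis) in the 4 NC rats (blue) and the 4 rats of the 12 h p.r. group (red), ordered by the NC mean, with lines for the group means. By group mean, *Dusp6* and *Spry1* lie above the other genes in both groups, and *Dusp5*, *Dusp4*, and *Etv4* are lowest in the NC group.

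The phosphatases act on ERK itself. *Dusp5* (ENSRNOG00000014061) encodes a nuclear phosphatase specific for ERK. Its level was 6.65, 4.78, 6.65, and 5.27 CPM in NC replicates 1 to 4 and 2.98, 3.82, 5.0, and 2.72 CPM in 12 h p.r. replicates 1 to 4. All 4 running rats were below the NC median, and 3 were below every NC rat. Running replicate 3, the rat with the most muscle RNA, was the exception. The log2 fold change was −0.69 (standard error, SE, 0.24, 95% interval −1.23 to −0.15), which is 0.619 times the NC level, with an unadjusted edgeR p of 0.0179. The adjusted p was 0.448 in edgeR's quasi-likelihood test, and *Dusp5* ranked 557 by p among the genes tested. The exact permutation test over the 70 splits of the rats gave p = 0.0571, where 0.0286 is the smallest that 4 against 4 allow. The gene rests on few reads, 23 to 88 per rat.

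*Dusp6* (ENSRNOG00000023896) encodes a cytoplasmic phosphatase that binds and inactivates ERK, and it is one of the best known transcriptional targets of fibroblast growth factor signaling. It was at 47.1, 36.3, 48.1, and 50 CPM in NC replicates 1 to 4 and at 26.1, 46.6, 33.0, and 36.5 CPM in 12 h p.r. replicates 1 to 4. The running rats were all below the NC median, but 2 of them lay within the NC range. The log2 fold change was −0.35 (SE 0.18, 95% interval −0.75 to 0.04, adjusted p = 0.565 in edgeR). With 202 to 637 reads per rat, this was one of the better counted of the 10 genes. Without running replicate 1 the log2 fold change was −0.23, and without running replicate 2 it was −0.51.

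*Dusp4* (ENSRNOG00000011921), a nuclear phosphatase of ERK and related kinases, had the widest spread. In the NC group it was nearly constant, at 8.98, 8.83, 10.2, and 9.86 CPM. The running rats scattered on both sides of this range, at 27.4 and 16.7 CPM in replicates 1 and 3 and at 7.25 and 8.36 CPM in replicates 2 and 4. Its SD was 9.34 CPM at 12 h p.r. and 0.665 CPM in the NC group. The log2 fold change of 0.65 (SE 0.38, 95% interval −0.21 to 1.52, adjusted p = 0.628 in edgeR) moved with single rats, to 0.18 without replicate 1, 0.88 without replicate 2 (unadjusted p of 0.0323 in edgeR), and 0.85 without replicate 4 (unadjusted p of 0.0499 in edgeR). Both rats with high *Dusp4* stood apart in other tissues as well, replicate 1 with 481 CPM of cartilage and bone genes and replicate 3 with 54200 CPM of skeletal muscle genes. NC replicate 3, with 1290 CPM of cartilage and bone genes, was at 10.2 CPM of *Dusp4*. The part of these tissues in the *Dusp4* level was not tested.

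**Figure D2:**
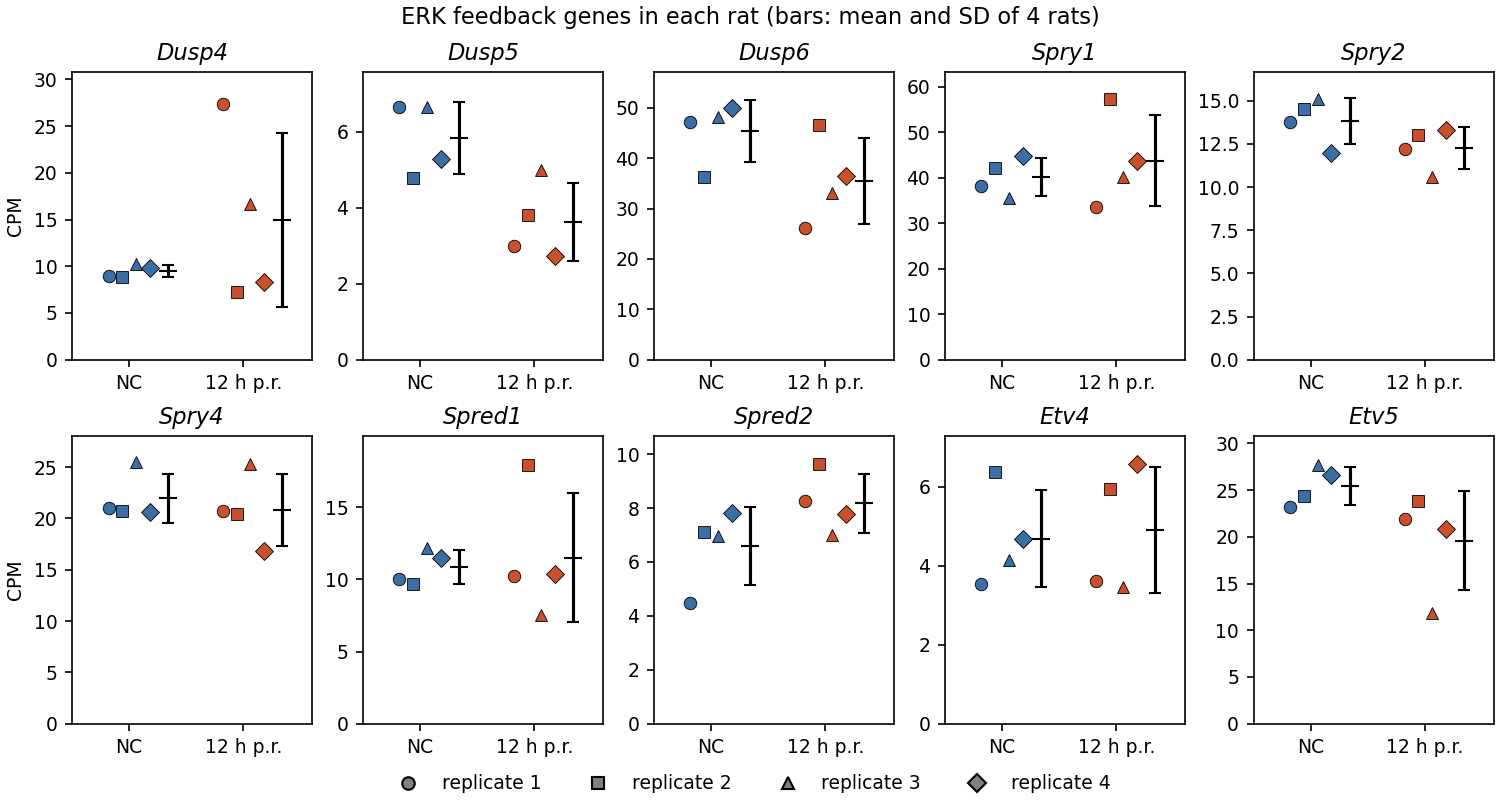
CPM of each of the 10 genes in each rat, with NC in blue and 12 h p.r. in red, a symbol for each replicate number, and the mean and SD of the 4 rats beside the points. The groups overlap in every panel, and the running rats of *Dusp4* run from 7.25 to 27.4 CPM, while the NC rats lie between 8.83 and 10.2 CPM.

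The makeup of the summed phosphatase level was also examined, a step chosen after the values were seen, since the point estimates of the 3 genes had opposite signs although none passed the adjusted test. The sum of the 3 was 18 ± 1.61 FPKM at 12 h p.r. and 21.2 ± 2.63 FPKM in the NC group (SD, n = 4, exact permutation p = 0.114). *Dusp6* made up 75.8 to 79.6% of this sum in the NC rats and 53.9 to 83.3% in the running rats. The share of *Dusp4* ran from 10.2 to 12.8% in the NC group and from 8.96 to 39.2% in the running group. Within a rat, *Dusp4* was 5.61, 1.15, 2.03, and 1.87 times *Dusp5* in FPKM in 12 h p.r. replicates 1 to 4 and 0.821, 1.12, 0.933, and 1.14 times in NC replicates 1 to 4. All 4 running rats were thus above all 4 NC rats in this ratio, with 1.15 in running replicate 2 and 1.14 in NC replicate 4 as the closest values. This is a description with no test, because the pair of genes was picked for it.

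Sprouty proteins are intracellular inhibitors that act between the receptor and RAF. *Spry1* (ENSRNOG00000025371) was at 38.2, 42.2, 35.5, and 44.8 CPM in the NC rats and at 33.6, 57.3, 40.2, and 43.7 CPM in the running rats, in the order of their replicate numbers. Running replicates 1 and 2 were the lowest and the highest of the 8 rats, so the NC range lay inside that of the running group. *Spry2* (ENSRNOG00000010058), at 13.8, 14.5, 15.1, and 12.0 CPM in the NC rats and 12.2, 13.0, 10.6, and 13.3 CPM in the running rats, was the steadiest of the 10 genes. Its SD within groups was 0.15 on the log2 CPM scale, against a median of 0.23 over all genes tested. *Spry4* (ENSRNOG00000013851) was at 21.0, 20.7, 25.5, and 20.6 CPM and at 20.7, 20.4, 25.3, and 16.8 CPM, and replicate 3 was the highest of each group. The log2 fold changes were 0.12 for *Spry1*, −0.17 for *Spry2*, and −0.08 for *Spry4*, with standard errors of 0.16, 0.13, and 0.14.

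These 3 genes give the tightest limits of the comparison. The 95% interval of the fold change was 0.850 to 1.4 for *Spry1*, 0.727 to 1.09 for *Spry2*, and 0.760 to 1.18 for *Spry4*. The interval lay inside a 2-fold change in either direction for 8 of the 10 genes, with *Dusp4* (0.862 to 2.86) and *Dusp5* (0.425 to 0.901) as the exceptions. The summed Sprouty level was 28.5 ± 4.2 FPKM at 12 h p.r. and 28.3 ± 0.898 FPKM in the NC group (SD, n = 4, exact permutation p = 1.00). *Spry1* made up 51.0 to 62.2% of it in the NC rats and 54.9 to 66.7% in the running rats.

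**Figure D3:**
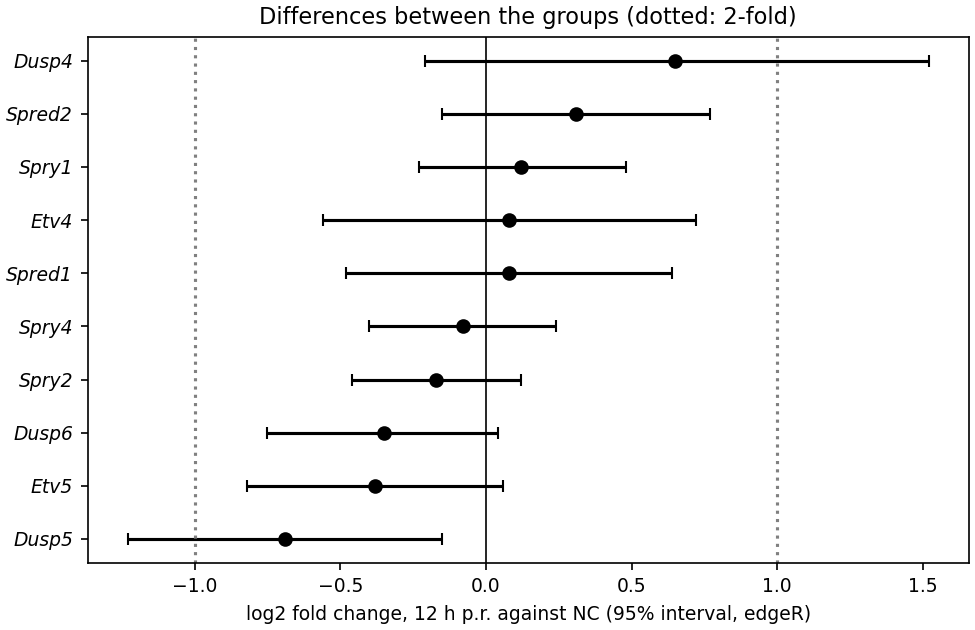
Log2 fold change of each gene, 12 h p.r. against NC (horizontal axis), with its 95% interval from the edgeR fit and dotted lines at a 2-fold change. The interval of *Dusp5*, −1.23 to −0.15, lies below 0, and the intervals of the other 9 genes span it.

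SPRED proteins restrain RAS at the membrane by bringing in neurofibromin, which switches RAS off. *Spred1* (ENSRNOG00000005209) was at 10, 9.69, 12.2, and 11.5 CPM in the NC rats and at 10.2, 17.9, 7.5, and 10.4 CPM in the running rats. Running replicate 2 was above all NC rats and running replicate 3 below all of them. *Spred2* (ENSRNOG00000004888) was at 4.49, 7.11, 6.95, and 7.82 CPM in the NC rats and at 8.28, 9.62, 7.02, and 7.79 CPM in the running rats. NC replicate 1 had the lowest *Spred2* of the 8 rats, and 2 running rats were above the NC range. The log2 fold change was 0.08 (SE 0.25, adjusted p = 0.939 in edgeR) for *Spred1* and 0.31 (SE 0.20, adjusted p = 0.668 in edgeR) for *Spred2*. Without running replicate 2, that of *Spred1* was −0.21, and without NC replicate 1 that of *Spred2* was 0.16.

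*Etv4* and *Etv5* encode ETS transcription factors of the PEA3 group, which are induced by ERK signaling and act on its target genes. *Etv5* (ENSRNOG00000001785) was at 23.2, 24.4, 27.7, and 26.6 CPM in the NC rats and at 21.9, 23.8, 11.9, and 20.8 CPM in the running rats. Running replicate 2 lay inside the NC range and the other 3 below it, replicate 3 far below. The log2 fold change was −0.38 (SE 0.20, 95% interval −0.82 to 0.06, adjusted p = 0.577 in edgeR, exact permutation p = 0.0571). Running replicate 3 is the rat with the most skeletal muscle RNA and the least tenocyte RNA, and its part in this level was not tested. Without that rat the log2 fold change was −0.20, and with the level of the muscle genes as a covariate it was −0.44 (unadjusted p of 0.0190, adjusted p = 0.366 in edgeR), which made 2 of the 10 genes with an unadjusted p under 0.05, against 11.2% of all genes in that fit. *Etv4* (ENSRNOG00000020792) was at 3.53, 6.38, 4.15, and 4.67 CPM in the NC rats and at 3.62, 5.93, 3.45, and 6.57 CPM in the running rats. The ranges of the groups nearly coincided, and the log2 fold change was 0.08 (SE 0.28, adjusted p = 0.951 in edgeR). It had 28 to 70 reads per rat, and the 95% interval of its fold change was 0.676 to 1.65.

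The 10 genes did not move as a block across the rats. Running replicate 2 was the highest of the 8 rats for *Spry1*, *Spred1*, and *Spred2*, and 7 of the 10 genes were above their mean of the 8 rats there. NC replicate 3 was highest for *Spry2*, *Spry4*, and *Etv5*. Running replicate 3 was lowest for *Spry2*, *Spred1*, *Etv4*, and *Etv5* but above the mean for *Dusp4*, *Dusp5*, and *Spry4*. Of the 8 rats, 6 were highest for at least 1 gene. The median deviation of the 10 genes from their own means ran from −0.15 to 0.18 on the log2 CPM scale in the running rats and from −0.07 to 0.19 in the NC rats. The sum of the 10 genes was 65.3 ± 9.70 FPKM at 12 h p.r. and 68.5 ± 3.41 FPKM in the NC group (SD, n = 4, exact permutation p = 0.514).

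**Figure D4:**
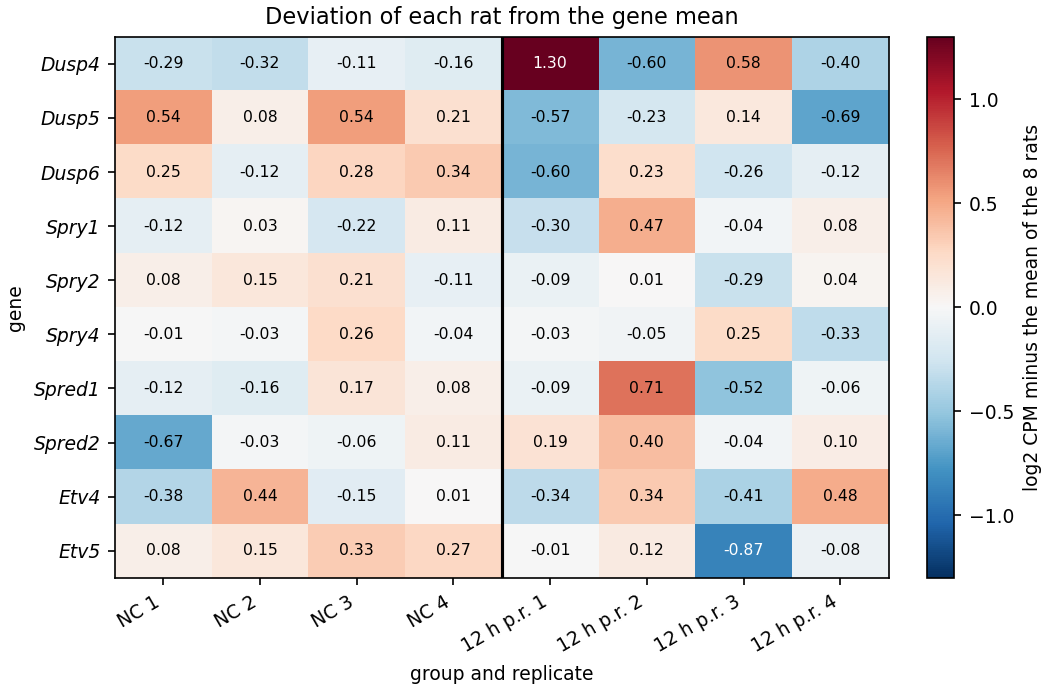
Log2 CPM of each gene (rows) in each rat (columns, NC to the left of the line and 12 h p.r. to the right) minus the mean of the 8 rats. The extremes are *Dusp4* in running replicate 1 (1.3) and *Etv5* in running replicate 3 (−0.87), and no column has 1 color throughout.

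Leaving out single rats showed where the comparison was fragile. Without running replicate 2, 4 of the 10 genes had an unadjusted p under 0.05, against 10.2% of all genes in that fit: *Dusp4* (log2 fold change 0.88), *Dusp5* (−0.72), *Dusp6* (−0.51), and *Etv5* (−0.49), and the lowest adjusted p among them was 0.436 in edgeR. Without NC replicate 2 there were 2, *Dusp5* (−0.77) and *Dusp6* (−0.44), against 8.96% of all genes. Without running replicate 4 there was 1, *Dusp4* in place of *Dusp5*, against 7.65% of all genes. The log2 fold change of *Dusp5* lay between −0.89 and −0.57 over the 8 fits without 1 rat, with an unadjusted p under 0.05 in 7 of them and of 0.0522 without running replicate 4. Without both replicates 3, the rats with the most muscle RNA (running) and the most cartilage and bone RNA (NC), it was −0.82 (unadjusted p of 0.0130, adjusted p = 0.384 in edgeR). Running replicate 1, with 481 CPM of cartilage and bone genes, stayed in that fit.

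Other genes of the pathway were followed as lists. Among 16 other feedback regulators and MAP kinase phosphatases, 14 were tested, and 0 had an adjusted p under 0.05, while 1 was higher and 1 lower at an unadjusted p under 0.05 (14.3%, against 9.51% of all genes, 5.44% of them higher and 4.08% lower). The higher one was *Spred3* (ENSRNOG00000051915), the third SPRED gene, at 5.05 ± 0.889 CPM at 12 h p.r. and 3.19 ± 0.245 CPM in the NC group. Every running rat (4.22 to 6.19 CPM) was above every NC rat (2.89 to 3.45 CPM), as in 3.52% of all genes tested. The log2 fold change of *Spred3* was 0.66 (SE 0.19, adjusted p = 0.432 in edgeR). The lower one was *Cblb* (ENSRNOG00000001982), a ubiquitin ligase, at 28.7 ± 3.53 and 34.4 ± 2.45 CPM, with a log2 fold change of −0.26 (SE 0.11, adjusted p = 0.507 in edgeR).

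Of 20 further ERK-dependent target genes, 18 were tested, and 0 had an adjusted p under 0.05. At an unadjusted p under 0.05, 2 were higher and 1 lower (16.7%, against 9.51% of all genes). *Fosl1* (ENSRNOG00000020552), an AP-1 subunit, was at 3.24, 5.53, 3.45, and 3.0 CPM in the running rats and 2.65, 1.72, 2.57, and 1.70 CPM in the NC rats, without overlap. Its log2 fold change was 0.80 (SE 0.28, adjusted p = 0.452 in edgeR). *Epha4* (ENSRNOG00000013213), an ephrin receptor, had one of 0.41 (SE 0.17, adjusted p = 0.498 in edgeR), also without overlap. Of all genes tested, 6.06% showed no overlap, 3.52% with every running rat higher. *Egr3* (ENSRNOG00000017828), an early growth response factor, was at 2.98, 5.66, 8.57, and 2.07 CPM in the running rats and 11.3, 6.13, 22.1, and 6.20 CPM in the NC rats. Its log2 fold change of −1.26 (SE 0.54, adjusted p = 0.507 in edgeR) was the lowest of the list, and NC replicate 3 was far above the other NC rats.

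Of the cascade itself, from RAS and RAF to ERK and its substrates, all 26 genes listed were tested, with 0 at an adjusted p under 0.05. At an unadjusted p under 0.05, 2 were higher and 0 lower (7.69%, against 9.51% of all genes, 5.44% higher and 4.08% lower). *Mapk3* (ENSRNOG00000053583), which encodes ERK1, was at 168 ± 14.1 CPM at 12 h p.r. and 135 ± 9.11 CPM in NC rats, with a log2 fold change of 0.32 (SE 0.10, adjusted p = 0.433 in edgeR). *Elk3* (ENSRNOG00000004367), an ETS factor that ERK phosphorylates, was at 180 ± 9.69 and 138 ± 8.03 CPM, a log2 fold change of 0.38 (SE 0.09, adjusted p = 0.385 in edgeR). In both genes every running rat was above every NC rat, as in 3.52% of all genes tested. The log2 fold changes of the 26 genes ran from −0.16 to 0.54 with a median of 0.10. Of 32 receptors and ligands upstream, 30 were tested, with 0 at an adjusted p under 0.05. At an unadjusted p under 0.05, 1 was lower and 0 higher (3.33%, against 9.51% of all genes, 4.08% lower and 5.44% higher). This was *Fgf1* (ENSRNOG00000013867), a fibroblast growth factor, at 22.6 ± 1.10 CPM after running and 28.3 ± 4.86 CPM in the NC group, with a log2 fold change of −0.32 (SE 0.13, adjusted p = 0.486 in edgeR) and no overlap between the groups.

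**Figure D5:**
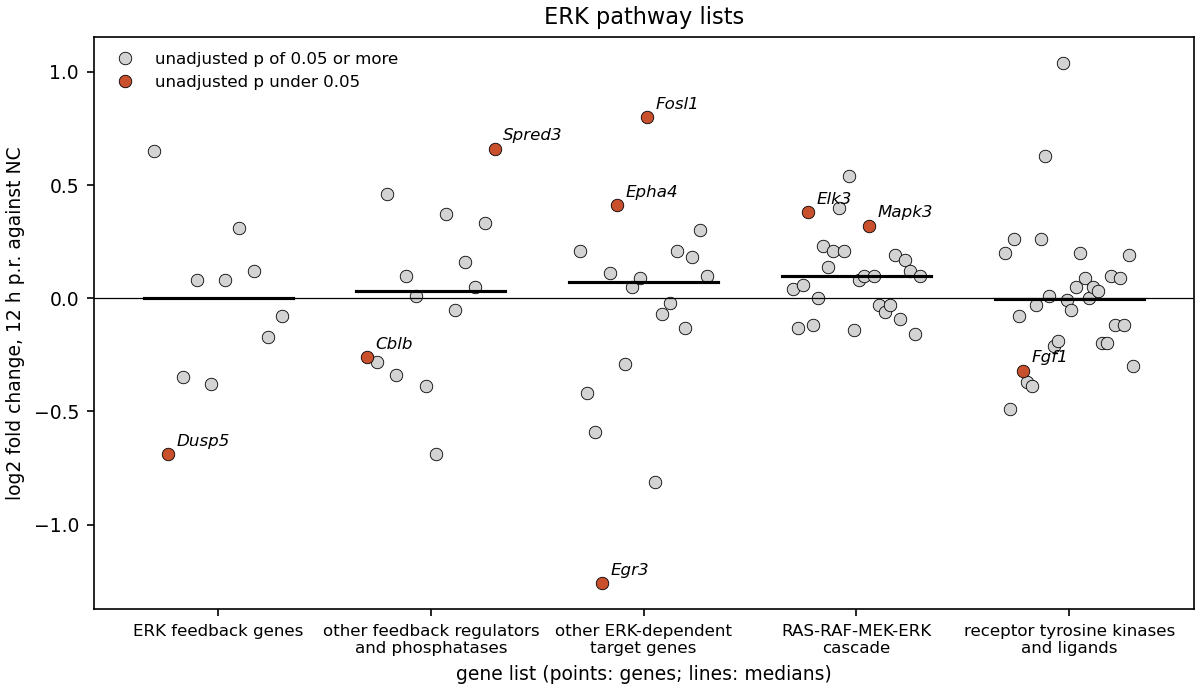
Log2 fold change, 12 h p.r. against NC, of each tested gene (points) of the 10 feedback genes and of 4 other lists of the pathway, with lines for the medians and genes of an unadjusted p under 0.05 in red with their names. The medians of the 5 lists lie between −0.01 and 0.10.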

How the data were processed

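Per the labels and the methods of the study, the authors aligned reads to Rnor_6.0 with HISAT2 2.1.0 and deposited counts of whole reads per Ensembl gene from featureCounts 1.6.3, without normalization. Whether the counting used the strand is not given in the sources used here. The authors also deposited FPKM values, in which each count is scaled by the length of the gene and by a per-rat factor equal to the DESeq2 size factor. A table of the authors' own comparison (fold changes and p values) was not used.

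Genes with low counts were removed with filterByExpr of edgeR 4.0.16, and the groups were compared with TMM factors and the quasi-likelihood test, and p values were adjusted over 13937 genes by the Benjamini-Hochberg method. Standard errors were taken from the F statistic. Exact permutation tests were 2-sided on log2(CPM + 0.5), and for sums of genes on log2(FPKM + 0.5). Alternatives used DESeq2 1.42.0, limma 3.58.1, other factors and filters, a muscle covariate, the replicate number as a block, and fewer rats. R 4.3.3 and Python 3.11.15 were used, and the fits were tested on simulated data. All 10 genes were to be named, and from each other list up to 4 genes with an unadjusted p under 0.05. The members and lists were chosen with earlier results of these data known. Total counts were 7350509 to 12951397 per rat. Tests of single Schwann cell genes are not reported here.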

Additional observations from a re-analysis of the deposited data

Results flagged for a closer look

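In 38 groups of 4 values (the 10 genes, 8 marker lists, and total counts in each group), 4 held 1 rat far from the other 3 by Dixon's criterion at the 0.05 level, which chance gives in about 1 of 20 groups. Among the feedback genes, NC replicate 3 was high in *Spry4*, at 4.70 on the log2(CPM + 0.5) scale, while the other NC rats lay at 4.40 to 4.43. The remaining 3 cases were means of marker lists on the same scale. NC replicate 3 was at 5.66 for cartilage and bone genes, with the next NC rat at 1.24. Running replicate 3 was at 8.63 for tenocyte genes, against 9.62 to 9.78 in the other running rats. NC replicate 2 was at 5.18 for leukocyte genes, against 6.40 to 6.61. The part of these tissues in the *Spry4* value was not tested.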

How the results depend on the processing

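No feedback gene had an adjusted p under 0.05 under any of the 18 alternatives, and the number with an unadjusted p under 0.05 was 1 in the main comparison, 2 with the muscle covariate, and 1 to 4 without 1 rat. Their median log2 fold change, 0.00, ran from −0.14 to 0.03 without 1 rat. Signs turned only in fits without 1 rat: *Spry1* to −0.03, *Spred1* to −0.21, and *Etv4* to −0.02 without running replicate 2, *Etv4* to −0.10 and *Spry4* to 0.01 without running replicate 4, and *Etv4* to −0.04 without NC replicate 1. Without 1 rat, the log2 fold change ran from −0.03 to 0.23 for *Spry1*, −0.19 to 0.01 for *Spry4*, −0.21 to 0.24 for *Spred1*, 0.16 to 0.40 for *Spred2*, 0.18 to 0.88 for *Dusp4*, −0.51 to −0.23 for *Dusp6*, −0.49 to −0.20 for *Etv5*, and −0.10 to 0.25 for *Etv4*, and the cause was not tested. Over all genes, 1326 had an unadjusted p under 0.05 (879 to 1580 without 1 rat) and 1 an adjusted p under 0.05, against 95 with DESeq2, 2 with the muscle covariate, and 0 with limma on either FPKM scale, with the replicate block, without both replicates 3, and without any 1 rat. The other lists counted 2 (other feedback regulators), 3 (other targets), 2 (cascade), and 1 (receptors and ligands) genes at an unadjusted p under 0.05. These were 1, 1, 2, and 2 with limma on log2(FPKM + 1), 1, 2, 2, and 2 with limma on log2(FPKM + 0.1), 1, 3, 2, and 1 with the replicate block, 2, 4, 3, and 3 with the muscle covariate, and 1, 2, 2, and 2 without both replicates 3. The counts were 3, 4, 2, and 1 with DESeq2 and 3, 3, 2, and 1 with no filter on low counts. Without 1 rat they ran from 1 to 3, 1 to 4, 2 to 4, and 1 to 3. The correlations of same-numbered rats ran from −0.19 to 0.12, and those of rats with other numbers from −0.29 to 0.31. With so few rats these values cannot settle whether the replicate numbers pair the rats. With the replicate block 974 genes had an unadjusted p under 0.05. The fewest reads were those of *Dusp5* (23 to 88 per rat) and *Etv4* (28 to 70), and how far depth limits these genes was not tested.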
